A study of Mus musculus with 4 samples.

Results

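Acute phase proteins were described on arrays of laser-captured mouse Paneth cells, which sit at the bottom of small intestinal crypts and secrete antimicrobial proteins. Of 10 listed genes, 9 had at least 1 probe set that the platform annotation assigns to that gene alone: Saa1, Saa2, Saa3, Hp, F2, Steap4, Orm1, Lcn2 and Ttr. C3 was matched to no probe set and was not analysed here. Together the 9 genes had 14 probe sets, of 45037 probe sets and 18193 named genes in all. The 4 arrays were 2 from Atg16-hypomorph mice, which carry an allele of reduced function of the autophagy gene Atg16l1, and 2 from wildtype mice. All samples came from a mixed C57BL/6 and 129ola background. The age and sex of the mice, the number of animals behind each array, and the nature of the hypomorphic allele are unstated in the labels. The comparison asked how reduced Atg16l1 function changes transcripts of the captured cells.

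Acute phase proteins are plasma and barrier proteins whose synthesis changes during inflammation, mainly in the liver and also in gut epithelium and fat tissue. Positive members rise under interleukin, STAT, C/EBP and NF-kB signalling, and negative members, such as transthyretin, fall. The serum amyloid A genes lie side by side, and Saa1 and Saa2 are near-identical, so a probe for 1 of them can bind transcripts of the other.

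The sequences upstream of the serum amyloid genes show how alike the copies are, and that of Steap4 is shown beside them because it held a match to each of 3 motifs searched. RefSeq promoter sequences (build GRCm38.p6) were analysed for 6 of the 9 measured genes. Those of Hp, Orm1 and Ttr were not analysed, so no motif or identity result is given for these genes. Each line below is the 250 bases before the start used in that table, read 5′ to 3′ on the strand of the gene: chr7:46742981-46743230 on the minus strand for Saa1, chr7:46751583-46751832 on the plus strand for Saa2, chr7:46715677-46715926 on the minus strand for Saa3 and chr5:7960222-7960471 on the plus strand for Steap4. Capitals mark matches, on either strand, to a STAT motif (TTCNNNGAA), a C/EBP motif (TTNCNNAA) or an NF-kB motif (GGG, any 3 bases, then TTCC), where N is any base.
Saa1: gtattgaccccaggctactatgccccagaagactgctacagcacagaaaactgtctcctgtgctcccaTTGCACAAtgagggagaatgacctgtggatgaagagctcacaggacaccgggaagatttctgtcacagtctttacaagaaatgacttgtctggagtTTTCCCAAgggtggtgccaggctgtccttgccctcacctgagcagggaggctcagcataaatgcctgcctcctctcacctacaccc
Saa2: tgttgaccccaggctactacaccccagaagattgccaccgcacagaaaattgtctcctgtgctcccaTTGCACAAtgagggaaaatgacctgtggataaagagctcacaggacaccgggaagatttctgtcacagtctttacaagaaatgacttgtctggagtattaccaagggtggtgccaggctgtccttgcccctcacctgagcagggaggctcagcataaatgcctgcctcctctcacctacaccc
Saa3: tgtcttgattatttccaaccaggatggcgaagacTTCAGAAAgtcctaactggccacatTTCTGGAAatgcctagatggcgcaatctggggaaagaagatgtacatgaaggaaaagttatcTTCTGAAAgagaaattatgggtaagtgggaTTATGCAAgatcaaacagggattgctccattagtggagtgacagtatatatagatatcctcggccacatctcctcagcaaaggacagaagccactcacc
Steap4: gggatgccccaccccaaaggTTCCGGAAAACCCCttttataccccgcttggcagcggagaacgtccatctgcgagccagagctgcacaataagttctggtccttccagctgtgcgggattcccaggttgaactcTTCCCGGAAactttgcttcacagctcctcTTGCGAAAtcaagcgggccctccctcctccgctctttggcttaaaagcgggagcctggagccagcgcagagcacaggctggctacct

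The Saa1 and Saa2 windows were 94.8% identical, with 238 identical bases in 251 aligned columns, whereas the other 14 pairs among the 6 windows were 42.6% to 52.6% identical. Saa1 and Saa2 share the C/EBP match TTGCACAA, and Saa1 has a second match, TTTCCCAA. Saa3 has C/EBP matches at 4 places, Lcn2 has 1 match and F2 has none. Steap4 has a STAT match (TTCCCGGAA), an NF-kB match on the reverse strand (printed above as GGAAAACCCC) that overlaps a C/EBP match, and a further C/EBP match. The windows of Saa1, Saa2, Saa3, Lcn2 and F2 have no STAT or NF-kB match. Of 32851 promoter windows of the same length in the table, 7.02% hold the STAT letters, 36.8% the C/EBP letters and 4.65% the NF-kB letters. These matches describe letters only and no binding was measured.

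Values below are deposited linear intensities, 1 per probe set and array. Each log2 difference is the hypomorph mean of log2(intensity + 32) less the wildtype mean, a scale that compresses changes of dim probe sets. A probe set was tested if its mean on that scale reached the median of all probe sets (6.32), which corresponds to an intensity near 47.7. A change was called at an adjusted p under 0.05 in limma (Benjamini-Hochberg over 22519 tested probe sets). Nothing in the labels ties the 2 arrays of a group to different mice, so the p-values reflect the spread between these arrays only, and that spread may be technical. In captured tissue, a change in the share of a cell type and a change in RNA per cell cannot be told apart.

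The Paneth cell products Lyz1, Mmp7, Ang4 and Itln1 read 8463 or more on every array, with the 11 measured markers of that cell summing to 66363 to 70803 in hypomorph and 68573 to 69028 in wildtype. Rank correlations across probe sets were 0.968 and 0.972 within the hypomorph and wildtype groups and 0.956 to 0.969 between groups, so arrays of a group were not clearly more alike than arrays of different groups. Atg16l1 read 966 and 995 in hypomorph against 1335 and 1183 in wildtype, a difference that was not called (limma, adjusted p = 0.102). Xist, which coats the inactive X chromosome of female cells, read 4414 and 4510 in hypomorph and 18.0 and 25.6 in wildtype on its brightest probe set. By this gene, the hypomorph arrays held RNA of female cells and the wildtype arrays did not. Sex and genotype therefore cannot be told apart for any difference reported here.

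Of the 9 genes, 4 rose in hypomorph samples (Saa1, Hp, F2 and Steap4), 1 fell (Ttr), and 4 were too dim to test (Saa2, Saa3, Orm1 and Lcn2). By probe set, 9 of 14 were bright enough to be tested, of which 5 were called higher and 3 lower. F2 was 1 of the 5 and entered the test only through its hypomorph values, so it had to be higher. Over all tested probe sets 3.71% were called, 2.04% higher and 1.67% lower. The median difference of the 9 tested probe sets was 0.90, against -0.03 for all tested probe sets, and that of all 14 was 0.17. The 0.90 is the value of the brighter Steap4 probe set, with larger rises above it and the Ttr falls below it. F2, which had to be higher, is 1 of those rises, and without it the median would be lower. The median therefore shows no common shift. The genes were listed with earlier results of these samples known, so these counts are a description. None of the 9 tested probe sets had overlapping groups, which was also true, in the higher direction, of 21.8% of all tested probe sets and, in the lower direction, of 29.9%.

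**Figure D1:**
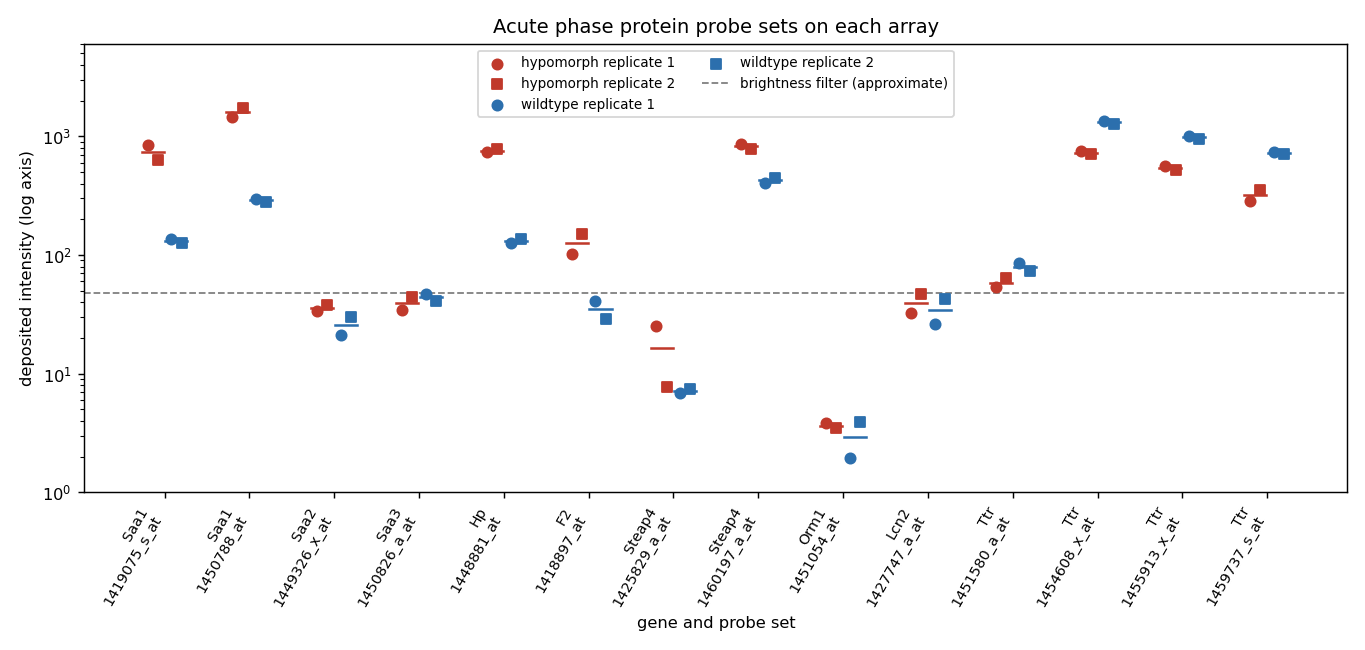
Deposited intensity (log axis) of each of the 14 probe sets on the 4 arrays, hypomorph in red and wildtype in blue, with short lines at the group means (n = 2 each) and a dashed line near the brightness filter, at 47.7. The Saa1, Hp, F2 and brighter Steap4 points lie higher in hypomorph, the Ttr points lie lower, and Saa2, Saa3, Orm1, Lcn2 and the dimmer Steap4 probe set lie below the line.

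Serum amyloid A is an apolipoprotein of high-density lipoprotein that the liver and the gut epithelium release during inflammation. The probe set 1450788_at, annotated to Saa1, read 1466 and 1739 in hypomorph and 299 and 279.6 in wildtype. Both hypomorph values were far above both wildtype values, with means of 1603 ± 193 and 289 ± 13.7 (SD, n = 2 each). The hypomorph mean was 5.54 times the wildtype mean and the log2 difference was 2.34 (SE 0.13; limma, adjusted p = 7.92e-06).

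The other probe set annotated to Saa1, 1419075_s_at, read 848 and 628 in hypomorph and 135 and 127 in wildtype. Its hypomorph mean was 5.63 times the wildtype mean, with a log2 difference of 2.23 (SE 0.17; limma, adjusted p = 6.67e-05). The hypomorph arrays differed from each other more than the wildtype arrays on both probe sets, and in opposite order: replicate 1 was the higher on 1419075_s_at and replicate 2 on 1450788_at. The ending _s_at marks, in this platform's naming, probes that match transcripts of more than 1 gene. In RefSeq's gene table the transcript listed for this probe set belongs to Saa2, although its symbol here is Saa1.

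The only probe set annotated to Saa2, 1449326_x_at, is listed with the same Saa2 transcript as 1419075_s_at but read far lower. It was at 33.6 and 37.7 in hypomorph and 21.3 and 30.1 in wildtype, brighter than 41.2% of all probe sets, and was not tested. Its hypomorph values were both the higher, with a log2 difference of 0.23. The ending _x_at marks probes that can bind sequences outside the intended gene. These 3 probe sets hence do not settle how much of the signal named Saa1 came from Saa1 and how much from Saa2.

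Saa3, the serum amyloid that macrophages and fat cells make in mice, is measured by 1450826_a_at. It read 34.1 and 44.2 in hypomorph and 47.4 and 41.0 in wildtype. The groups overlapped, the log2 difference was -0.10, and the probe set was too dim to test. Its upstream window was 48.9% identical to that of Saa1, far below the identity of Saa1 with Saa2 and within the range of the other pairs. Identity upstream does not show which transcripts a probe set binds.

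Hp encodes haptoglobin, which binds haemoglobin freed from red cells and delivers it to the scavenger receptor encoded by Cd163. Its 1 probe set, 1448881_at, read 742 and 775 in hypomorph and 126 and 136.5 in wildtype. The arrays of each group lay close together and the groups were far apart, at 758 ± 23.2 and 131 ± 7.62 (SD, n = 2 each). The ratio of means was 5.78 and the log2 difference 2.28 (SE 0.14; limma, adjusted p = 1.25e-05).

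F2 encodes prothrombin, the precursor of the clotting protease thrombin. On 1418897_at it read 102 and 149.5 in hypomorph and 41.2 and 28.8 in wildtype. Both wildtype values were below the brightness filter, so F2 was tested only because of its hypomorph values, and such a probe set had to differ. The log2 difference was 1.23 (SE 0.20; limma, adjusted p = 0.00906), with a ratio of means of 3.60. This call was lost when all probe sets were tested without a brightness filter (adjusted p = 0.0773).

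Steap4 is a membrane metalloreductase that reduces iron and copper and is induced by inflammatory cytokines. The brighter probe set, 1460197_a_at, read 861 and 784 in hypomorph and 406 and 446 in wildtype. These groups did not overlap, the ratio of means was 1.93 and the log2 difference was 0.90 (SE 0.12; limma, adjusted p = 0.00343). The second probe set, 1425829_a_at, read 25.3 and 7.66 against 6.88 and 7.48. It was too dim to test, and its difference of 0.28 rested on hypomorph replicate 1, being 0.02 without that array.

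The lipocalins among the listed genes were dim in both groups. Orm1, the plasma drug and lipid carrier orosomucoid, read 3.84 and 3.48 in hypomorph and 1.94 and 3.93 in wildtype on 1451054_at, brighter than only 4.21% of probe sets. Lcn2, which withholds iron from bacteria by binding their siderophores, read 32.5 and 46.6 against 26.0 and 42.7 on 1427747_a_at. The groups overlapped for both genes, and replicate 2 was the higher in each group for Lcn2. Tested without the brightness filter, neither was called (limma, adjusted p = 0.911 for Orm1 and 0.847 for Lcn2), nor was Saa2 (0.567) or Saa3 (0.84).

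Ttr encodes transthyretin, which carries thyroid hormone and, with retinol binding protein, retinol, and which falls in the plasma during inflammation. The brightest of its 4 probe sets, 1454608_x_at, read 751 and 708 in hypomorph and 1356 and 1269 in wildtype. On 1455913_x_at it read 566 and 519 against 1015 and 953. The probe set 1459737_s_at read 286 and 349.8 against 734 and 712.

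All these Ttr values were lower on each hypomorph array than on either wildtype array. The wildtype means were 1.80, 1.81 and 2.28 times the hypomorph means, with log2 differences of -0.82, -0.82 and -1.12 (SE 0.10, 0.11 and 0.14; limma, adjusted p = 0.00215, 0.00373 and 0.00175). The dimmest, 1451580_a_at, read 53.4 and 63.5 against 85.3 and 73.0, also without overlap, but its difference of -0.30 was not called (adjusted p = 0.355). The endings of the 3 called probe sets mark possible binding to other transcripts.

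**Figure D2:**
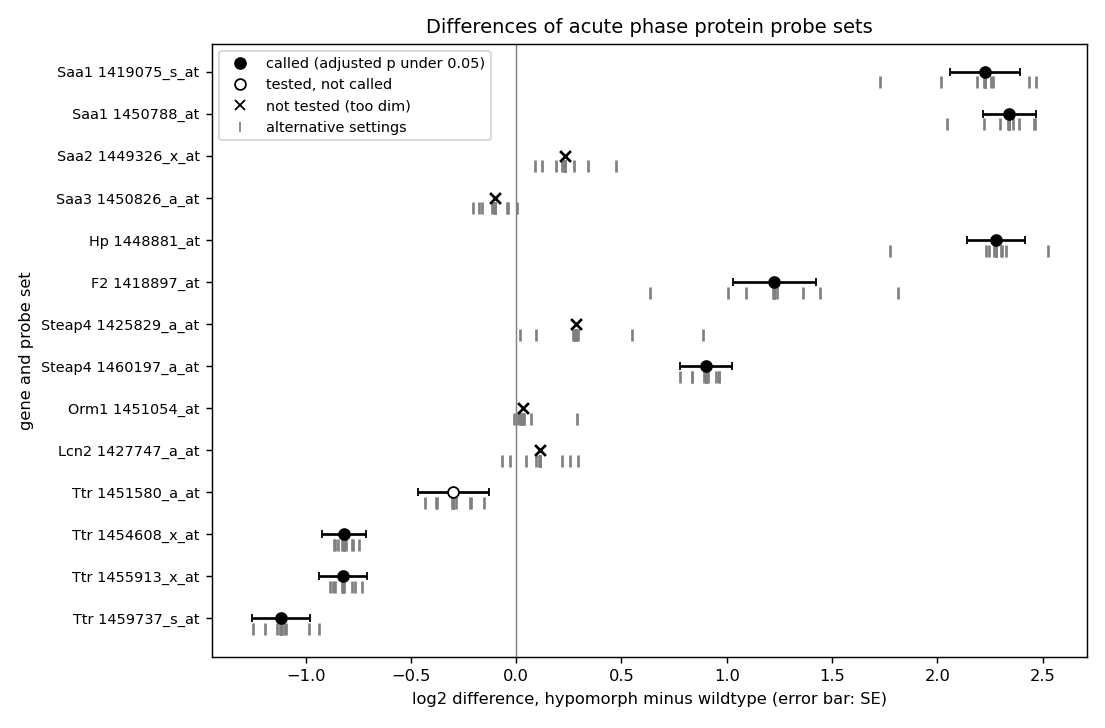
Log2 difference, hypomorph minus wildtype, of each probe set (x axis) with its SE where tested; filled circles were called, the open circle was not, crosses were too dim to test, and grey ticks are the values under alternative processing. Both Saa1 probe sets and Hp lie between 2.2 and 2.4 as reported, and 3 Ttr probe sets lie between -1.12 and -0.82.

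By size, 13, 14 and 16 of the 22519 tested probe sets had a larger rise than 1450788_at of Saa1, Hp and 1419075_s_at of Saa1 in turn. F2 and the brighter Steap4 probe set were exceeded by 75 and 175, and the steepest Ttr fall by 64 larger falls. Differences of Saa1 and Hp, at 2.34 and 2.28, were within their SEs of each other, although levels of different probe sets are not comparable.

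Genes with profiles most like those of Saa1, Hp and Ttr were found by the root mean square distance of centred log2 values over the 4 arrays among 11577 tested genes. With 2 arrays per group, this distance depends largely on the size of the group difference, so nearness alone does not show shared regulation. The 3 nearest to Saa1 were Adipoq, a hormone of fat cells (distance 0.083), Hp (0.097) and Adig, a gene of fat cell differentiation (0.14). Adig, at 15.4 and 10.1 in wildtype, passed the filter only through its hypomorph values and had to be higher. Those nearest to Hp were Adipoq (0.082), Saa1 (0.097) and Apoa4, an apolipoprotein of enterocytes (0.12). Those nearest to Ttr were Thbs4 (0.015), Ceacam10 (0.036) and the metallothionein Mt2 (0.041). Adipoq read 675 and 680 in hypomorph and 109 and 101 in wildtype.

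Of 24 other positive acute phase proteins with a probe set, 10 were bright enough to be tested, of which 0 were called higher and 1 lower, with a median difference of -0.07, against -0.02 over all 11577 genes tested (4.23% of genes called, 2.53% higher and 1.7% lower). A count this small is near that share, and says little of the group. Mt2, which binds zinc and copper, fell from 4304 and 4112 in wildtype to 2346 and 2396 in hypomorph (log2 difference -0.82; limma, adjusted p = 0.00019). The lipopolysaccharide binding protein gene Lbp read 61.7 and 72.0 against 42.0 and 39.8, past the filter only through its hypomorph values (adjusted p = 0.176), and the antitrypsin gene Serpina1b read 245 and 275 against 337 and 364 (adjusted p = 0.164). Liver products such as Hpx, Crp, Fga and the orosomucoids Orm2 and Orm3 were among the 14 genes below the filter.

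Negative acute phase proteins other than Ttr went the opposite way to Ttr where they could be tested. Rbp4, the retinol carrier that binds transthyretin in plasma, read 1160 and 1295 in hypomorph and 356 and 382 in wildtype (log2 difference 1.65; limma, adjusted p = 5.32e-05). Apoa1, the main protein of high-density lipoprotein, read 4345 and 4752 against 2333 and 2705 (0.85, adjusted p = 0.000569), and its 3 other probe sets gave 1.14 to 1.18. These were the only 2 of 7 genes of this list past the filter. Albumin (Alb) read 49.3 and 31.2 against 20.3 and 26.9 and was not tested.

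In the complement list 1 of 14 tested genes was called higher and 0 lower, with a median of 0.02. The shares over all genes were 2.53% higher and 1.7% lower, so 1 call says little of the list. Cfi, the protease that inactivates complement fragments, read 1528 and 1731 in hypomorph and 374 and 374 in wildtype (log2 difference 2.03; limma, adjusted p = 9.08e-06). C2, a protease of complement activation, read 1650 and 2068 against 1402 and 1249 (adjusted p = 0.0616). Masp2, of the same list, read 2.63 and 16.1 in hypomorph and 50.2 and 55.2 in wildtype (log2 difference -1.05). Its low hypomorph values put its mean below the filter, so it was not tested and the count of 0 lower does not cover it. Of 13 coagulation and fibrinolysis genes tested beside F2, 0 were called in either direction (median -0.02). F13a1, a fibrin cross-linking enzyme, read 89.9 and 150.3 against 67.1 and 51.7 (adjusted p = 0.102), and 12 further genes of this list, F7, F9 and F10 among them, were too dim to test.

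Among inducers of the acute phase and their signalling genes, 1 of 17 tested was called higher and 0 lower (median 0.06). This 1 call, beside 2.53% higher and 1.7% lower over all genes, says little of the list. Socs3, a feedback inhibitor that STAT signalling induces, read 2967 and 2625 in hypomorph and 765 and 848 in wildtype (log2 difference 1.75; limma, adjusted p = 1.07e-05), and a second tested probe set of it gave 1.66. The transcription factor genes Stat3 (773 and 1061 against 684 and 845), Cebpb (137 and 116 against 116 and 111) and Cebpd (520.0 and 578 against 497 and 542) were not called. Il1r1, a receptor of interleukin signalling, read 96.7 and 108 against 176 and 171 (adjusted p = 0.0659). Il6, Il1b and Tnf were below the filter, with Il6 at 1.00 to 1.47 on all 4 arrays.

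Of 8 tested receptors and carriers of acute phase proteins, 2 were called higher and 0 lower (median 0.13). Shares over all genes were 2.53% higher and 1.7% lower. Cd163, the haptoglobin-haemoglobin receptor of macrophages, read 2328 and 2358 in hypomorph and 1056 and 1267 in wildtype (log2 difference 1.00; limma, adjusted p = 0.000569). Cd36, a fatty acid and lipoprotein receptor, read 837 and 765 against 234 and 218 (1.69, adjusted p = 8.39e-05), and its other probe sets gave 1.04 and 0.85. Of 11 iron handling and STEAP family genes 0 were called (median -0.05). Within that list Steap3, the reductase of transferrin-bound iron, read 255 and 193 against 141 and 169 (adjusted p = 0.194).

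**Figure D3:**
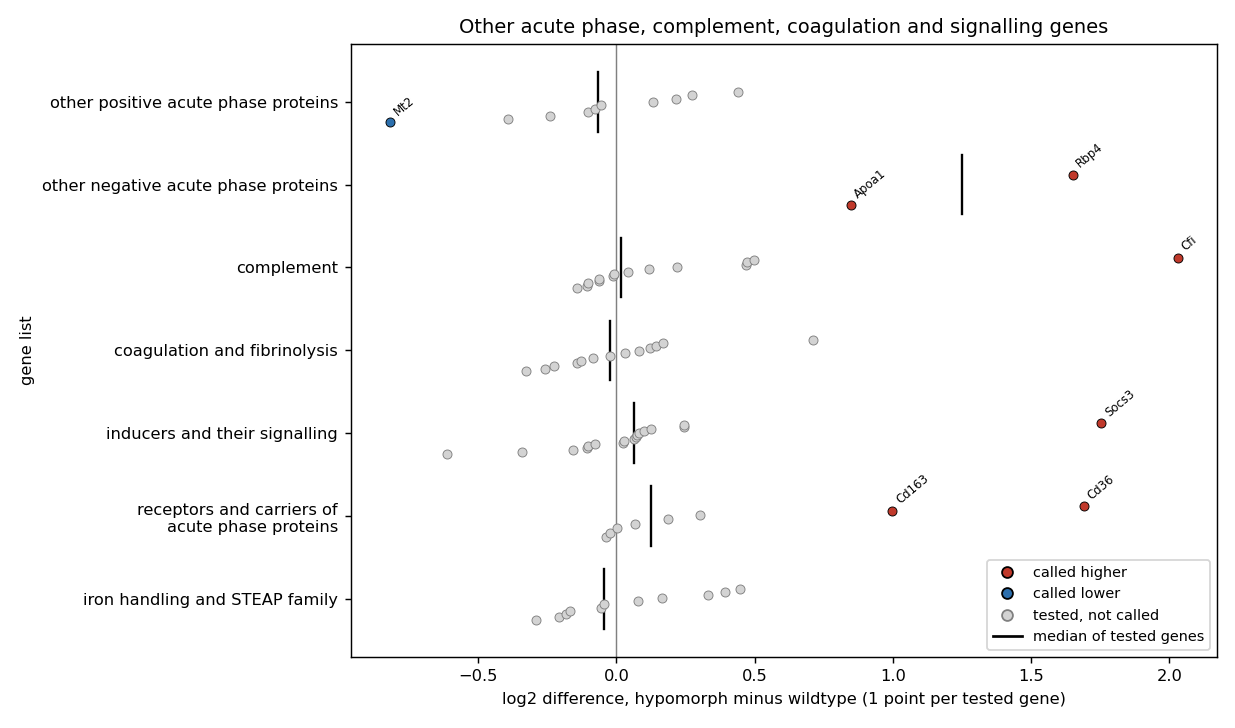
Log2 difference, hypomorph minus wildtype, of each tested gene (1 point, brightest probe set) in 7 lists related to the acute phase, with called genes coloured and named and a black line at each list's median. Most points lie near 0, with Rbp4, Apoa1, Cfi, Socs3, Cd163 and Cd36 called higher and Mt2 called lower.

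Markers of other cells moved between the groups beside these genes, and several acute phase genes, among them Hp, Saa3, Lcn2, Orm1 and Rbp4, are also made by fat cells. Of 11 tested fat cell markers 9 were called higher and 0 lower (median 1.88), against 2.53% higher and 1.7% lower over all genes tested. The 14 measured markers summed to 33350 to 33468 in hypomorph and 10582 to 10737 in wildtype. Cidec and Lep were tested only through their hypomorph values and had to be higher, and 7 of the other 9 were called higher. The median of 1.88 is the value of Lep itself, so it depends on these genes and would be lower without them. Scd1, Thrsp, Adipoq and Cidec had the 4 largest differences, while Retn, Lipe and Nnat were too dim to test. Enterocyte markers were called higher in 7 of 12 cases and lower in 0 (median 0.89), with sums of 30344 to 31487 against 21555 to 22099.9. Lct was likewise tested only through its hypomorph values and is counted in the median of 0.89, and 6 of the other 11 were called higher. Apoa1 is itself 1 of the 7 enterocyte markers called higher, so its rise is counted in both lists. The part of these cells in the rises of Saa1, Hp, F2, Steap4, Rbp4 and Apoa1 was not tested.

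Hepatocyte markers, the textbook source of most acute phase proteins, summed to 689 to 754 in hypomorph and 501 to 529.8 in wildtype over 12 genes. Of 4 tested, 1 was called higher, G6pc, an enzyme of glucose release, at 158 and 138 against 74.4 and 81.3 (adjusted p = 0.0458). Cyp2c29, another of the 4, was tested only through its hypomorph values and was not called. The defining liver genes Alb, Afp, Ahsg, Fgb and Hpx were below the filter. Neutrophil markers, of cells that store haptoglobin and lipocalin, summed to 248 to 312 against 209.6 to 226, with S100a9 at 2.26 or less and S100a8 at 15.3 or less on all arrays and 0 of 1 tested gene called. Macrophage markers were called higher in 1 of 9 cases, Cd163, and in no case lower, with sums of 18258.5 to 19382 against 16446 to 16980.3. With 2.53% of all genes called higher, 1 call in a short list says little of that cell type.

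Enteroendocrine cells, hormone cells of the gut epithelium, were followed because transthyretin is also made by related hormone cells of the pancreas. Their markers were called lower in 4 of 12 tested cases and higher in 0 (median -0.28). Over all genes tested, 1.7% were called lower and 2.53% higher. The marker sums were 10563 to 10958 in hypomorph and 13306 to 14324 in wildtype. Gip fell from 171 and 158 to 72.0 and 47.3, and Gcg from 3098 and 2892 to 1981 and 2177. Not all markers of these cells were lower, since Scg2 read 115 and 96.5 in hypomorph against 60.8 and 54.9 in wildtype (log2 difference 0.61; limma, adjusted p = 0.0776) and the difference of Sct was 0.12. The part of these cells in the fall of Ttr was not tested. Fibroblast and matrix genes were called higher in 4 of 10 cases (median 0.28), pancreatic acinar genes in 0 of 3 and Paneth cell genes in 2 of 11, Reg3g and Mptx1.

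**Figure D4:**
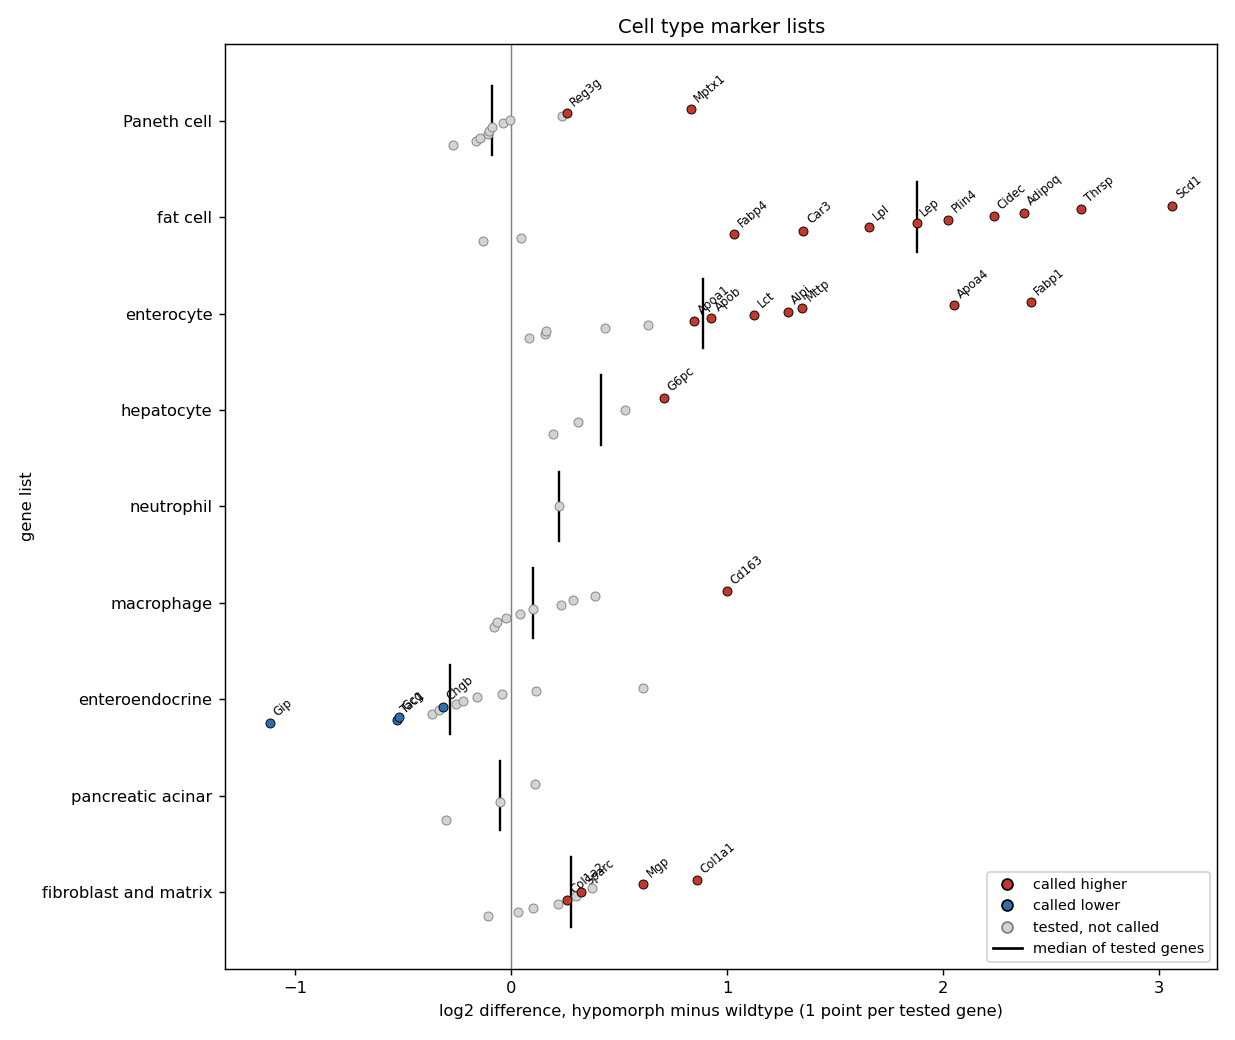
Log2 difference, hypomorph minus wildtype, of each tested marker gene (1 point, brightest probe set) in 9 cell type lists, with called genes coloured and named and a black line at each list's median. The medians of fat cell and enterocyte markers are 1.88 and 0.89 and that of enteroendocrine markers is -0.28. The first 2 medians include Cidec, Lep and Lct, which were tested only through their hypomorph values. Pparg (-0.13) lies on the other side of 0 in the fat cell list, as do Scg2 (0.61) and Sct (0.12) in the enteroendocrine list.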

How the data were processed

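RNA of the captured cells (PicoPure kit) was amplified and biotin-labelled by RiboAmp plus chemistry, per the labels' protocols, and measured on 4 arrays of 1 colour. The authors deposited 1 linear intensity per probe set and array. Their background correction, probe summary, scaling and detection calls are unstated in these sources. Trimmed means differed by a factor of at most 1.02 between arrays, so no further scaling was applied. Of 45101 probe sets, 64 controls were left out. Names came from the platform annotation, in which 34945 probe sets had 1 symbol, 932 several (named by none) and 9160 none.

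Values were fitted as log2(intensity + 32) with group as the only term in limma 3.58.1 under R 4.3.3 (lmFit, eBayes with an intensity trend; 2 residual and 7.81 prior degrees of freedom), and p-values were two-sided. The number of arrays limits the precision. A gene was represented in lists by its brightest probe set. All listed genes were named with every probe set. From each other list up to 4 genes were chosen, called ones by size first and then those with the smallest unadjusted p. Not all genes so chosen are printed, with Mt1, Slc40a1, Tfrc, Nfkbia and Lifr among those left out. Further genes were named for their role, after values were seen. The members and lists were chosen with earlier results of these data known. The fit was tested on simulated data. Promoter windows were aligned globally with Biopython 1.88. Alternatives were other scalings, pseudocounts, brightness filters and priors, a replicate block, probe set means and each array left out.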

Additional observations from a re-analysis of the deposited data

How the results depend on the processing

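The 5 higher and 3 lower calls among acute phase protein probe sets held their direction under all 13 alternatives that could test them, and their threshold too except for F2, which had an adjusted p of 0.0773 without the brightness filter and was too dim to test with a filter at the upper quartile. The log2 difference of 1450788_at of Saa1 ranged from 2.05 to 2.46, that of Hp from 1.77 to 2.52, that of F2 from 0.63 to 1.81 and that of 1454608_x_at of Ttr from -0.87 to -0.75. The extremes of F2 were the values at a pseudocount of 4 times 32 and at a pseudocount of 1. Counts over all probe sets moved more: 183 higher and 120 lower without a filter, 192 and 131 without an intensity trend, and 244 lower with a filter at the upper quartile. Leaving out 1 array gave 317 to 706 higher and 178 to 942 lower. Without hypomorph replicate 2 the counts were 706 and 942, and leaving out hypomorph replicate 1, wildtype replicate 1 or wildtype replicate 2 gave 228, 178 and 183 lower calls in turn. Of the genes in the 7 related lists, 6 were called higher and 1 lower as reported, 6 to 8 and 1 to 2 with 1 array left out, and 2 lower with the mean of all probe sets. A group left with 1 array takes its spread from the other group. A replicate block gave 1489 higher and 1717 lower over all probe sets, and 12 and 6 in the 7 lists, with the same 5 and 3 acute phase counts. Same-numbered arrays deviated together with a correlation of 0.26, but over 2 pairs only, and no label ties the numbers to animals or batches.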

Other observations

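Pentraxins are a family of ring-shaped pattern recognition proteins that includes the acute phase proteins encoded by Crp and Apcs. Both of these genes were dim, Crp at 3.93 and 4.78 in hypomorph and 5.28 and 13.4 in wildtype, and Apcs at 14.2 and 22.9 against 19.6 and 32.2. The mucosal pentraxin gene Mptx1, measured as a Paneth cell marker, was bright and rose, from 1954 and 1912 in wildtype to 3841 and 3124 in hypomorph (log2 difference 0.83, SE 0.10; limma, adjusted p = 0.00151). Reg3g, a bactericidal lectin that inflammation and microbes induce in gut epithelium, read 8023 and 8810 in hypomorph and 6983 and 7066 in wildtype (0.26, SE 0.06; adjusted p = 0.0453).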
